A study of Mus musculus with 6 samples.

Results

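The genes described here encode proteins of the cytosolic ribosome. The 49 members were picked by symbol, 29 of the large subunit (Rpl and Rplp symbols) and 20 of the small subunit (Rps symbols), and each matched 1 Ensembl gene ID in the catalogues, which list 15939 genes in all. RNA came from the nucleus accumbens, a ventral striatal region involved in reward, of C57BL/6N mice that went through conditioned place preference training, in which a drug is paired with a place. Control animals received saline injections and the other group received morphine, an opioid receptor agonist, with 3 libraries per group (saline 1, 2 and 3, and morphine 4, 5 and 6) and 6 mice per group in the design text. The labels do not tie mice to libraries, so p-values measure only the spread between these libraries. Transcripts had been assembled library by library. A catalogue for each library records their first and last exons, and where their structures part from one another in between. First and last exons were listed for all 15939 genes, so 1 of each is no sign of alternative structures. Distinct events were counted for each gene in each library, in 5 classes. These are first exons, last exons, skipped exons, retained introns and exons with alternative ends. An event is not an amount of RNA, and read depth is unknown. Where an event is missing from a catalogue, the transcript may still have been present. In bulk tissue, fewer cells of a type and less RNA per cell cannot be told apart.

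Ribosomal proteins coat and stabilise the ribosomal RNAs of the 2 subunits, the large one carrying the peptidyl transferase centre and the small one the decoding site. Their genes are transcribed at high rates in nearly every cell, are short, and often carry small nucleolar RNAs (snoRNAs), guides for modification of ribosomal RNA, inside their introns. Their messenger RNAs typically start at a C followed by a run of pyrimidines, the terminal oligopyrimidine (TOP) tract through which mTOR signalling and Larp1 set their translation. Several ribosomal proteins are also known to act on the splicing of their own transcripts.

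Short pyrimidine motifs were looked for in the sequence around annotated starts. RefSeq's promoter table (GRCm38.p6) had an entry for 40 members, and Rpl3, Rpl7, Rpl8, Rpl30, Rpl32, Rplp1, Rps14, Rps20 and Rps29 had none. The motifs CTTTC and CTTTT, which cannot overlap each other by more than the last base, were searched from 20 bases before to 20 bases after each RefSeq start. On the gene's strand 14 of the 40 members held one (35%), against 10 of 19 other cytosolic ribosomal protein genes with an entry (52.6%) and 2928 of 26985 other genes (10.9%). On the opposite strand 4 of the 40, 1 of the 19 (5.26%) and 2651 of the 26985 (9.82%) did. A TOP tract lies at the first bases of the RNA, so matches that begin at the start or after it were also counted alone. They were in 9 of the 40 members (22.5%), 8 of the 19 (42.1%) and 1335 of the 26985 (4.95%), and in the other 5 members with a match (Rpl4, Rpl5, Rpl13, Rpl34 and Rps25) the motif begins upstream of the start. The windows printed are from members with the motif at or just after the start, to show what such starts look like. Each runs from 10 bases before the RefSeq start to 20 bases from it, 5′ to 3′ on the gene's strand. The match nearest the start is in capitals. The windows of Rps27 and Rpl35 also hold a CTTTC that begins upstream of the start, left in lower case.
Rpl38 (chr11:114668570-114668599, plus strand): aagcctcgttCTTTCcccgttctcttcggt
Rplp2 (chr7:141447641-141447670, plus strand): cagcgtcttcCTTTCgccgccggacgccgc
Rps27 (chr3:90213629-90213658, minus strand): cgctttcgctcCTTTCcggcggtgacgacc
Rps6 (chr4:86857348-86857377, minus strand): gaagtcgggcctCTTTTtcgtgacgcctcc
Rpl28 (chr7:4792955-4792984, plus strand): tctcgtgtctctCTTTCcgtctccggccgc
Rpl35 (chr2:39005112-39005141, minus strand): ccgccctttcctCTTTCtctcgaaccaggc
In Rpl38 and Rplp2 the C of the motif is the RefSeq start base itself. The nearest first exon start in any catalogue lay at the RefSeq start in 14 of the 40 members and within 20 bases of it in 29. The median distance was 3 bases and the largest 493. Among the printed windows this distance was 11 bases in Rps6, 25 in Rpl28, 29 in Rpl38 and 33 in Rps27. It was 281 in Rplp2 and 493 in Rpl35. The printed windows therefore show RefSeq starts, not first exon starts listed in the catalogues. A match is a description of these letters and does not show that a factor acts there.

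Ribosomal protein genes had few events, and almost all of them were transcript ends. Since first and last exons were listed for all 49 genes, as for every listed gene, a gene with 2 events holds nothing else. Summed over the 49 genes, the saline libraries listed 138, 134 and 138 events and the morphine libraries 134, 137 and 134. That is 137 ± 2.31 in saline and 135 ± 1.73 in morphine (SD, n = 3 libraries each), a log2 ratio of -0.018, and the groups overlap. The mean over the 6 libraries was 2.77 events per gene, against 3.56 over all listed genes, and ran from 2 to 5 among the members. The members are also shorter in exons, with a median of 5 exons in the coding transcript with the most exons, against 9 over all listed genes.

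The saline libraries listed 79, 76 and 80 first exons and the morphine libraries 77, 79 and 78. Last exons numbered 52, 52 and 50 in the saline libraries and 53, 52 and 52 in those of morphine. First exons made up 56.7% to 58.2% of the members' events in a library, against 37.4% to 39.7% in all other genes. For last exons the shares were 36.2% to 39.6%, against 28.9% to 30.5%. The internal classes were correspondingly thin. Skipped exons took 1.45% to 2.17% of the members' events and 10.3% to 11.7% of those of other genes, and alternative exon ends took 1.49% to 4.35% and 9.81% to 10.5%. Intron retention was listed 0 times for the 49 genes in all 6 libraries, whereas it made up 8.79% to 13.0% of events elsewhere. These shares are given as a description, with no test over gene lists. They depend on the number of events per gene, because first and last exons are listed for every gene and weigh more where events are few.

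**Figure D1:**
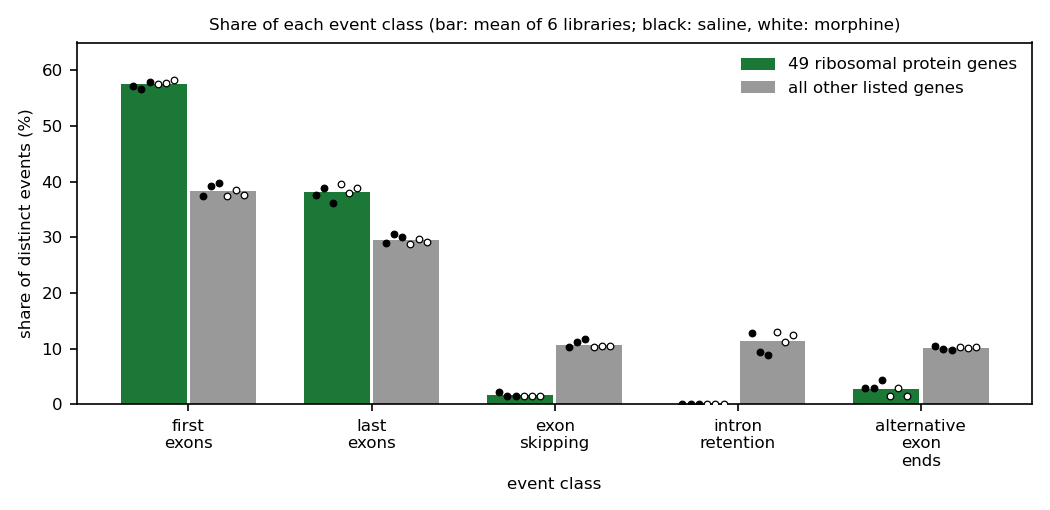
Share of each event class among distinct events (vertical axis, %), for the 49 ribosomal protein genes (green) and all other listed genes (grey). Bars are means of 6 libraries, black points saline and white points morphine; first exons of the ribosomal protein genes lie between 56.7% and 58.2%, and intron retention is at 0 in every library.

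Most of the events were the same ones from library to library. Of 163 distinct events over the 49 genes, 112 (68.7%) were listed in all 6 libraries and 15 (9.2%) in 1 library alone. Over all genes 26901 of 128790 events (20.9%) were in all 6 and 65299 (50.7%) in 1. The contrast also stood within first exons, with 71.1% of the members' in all 6 libraries against 29.8% over all genes. For last exons these shares were 74.2% and 32.1%. Of the members' 3 skipped exons 2 were in all 6, against 18.3% over all genes. Alternative exon ends went the other way, with 0 of the members' 8 in all 6, against 8.85%. An average of 84.0% of the members' events (range 80.7% to 86.3%) was shared by 2 libraries of the same group, and 84.6% (81.9% to 88.7%) by 2 libraries of different groups. Over all genes these means were 47.7% and 47.5%. An event was called annotated where its splice site or exons are those of the gene in GENCODE M21. This held for 147 of the 163 (90.2%) and for 63.4% of all events. Each of the 112 events listed everywhere was annotated, as were 35 of the other 51, and the 16 unannotated ones came from 6 genes.

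The question of the design is whether the genes differ in event number between saline and morphine training. The groups overlapped in each of the 49 genes, so 0 of 49 were separated, where 462 of 15040 tested genes (3.07%) were, 1.64% with morphine above and 1.43% with saline above. All 49 passed the filter of a mean of 0.5 events. The limma test on log2 (events + 0.5), with Benjamini-Hochberg adjustment over the 15040 genes, called 0 of the 49 and 0.638% of all tested genes. Unadjusted, 0 of the 49 had a limma p under 0.05, and the smallest was 0.0955. The smallest exact permutation p of a member was 0.4, where 3 against 3 allows 0.1. The log2 difference was above 0 in 4 members, below 0 in 10 and 0 in 35, and its largest size was 0.57. Also, 0 of the 163 events were listed in all 3 libraries of 1 group and in none of the other, which holds for 0.665% of all events. These p-values do not show that the groups are alike, since event numbers are small and 30 of the members (61.2%) had 1 and the same number in all 6 libraries, as did 22.8% of tested genes.

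**Figure D2:**
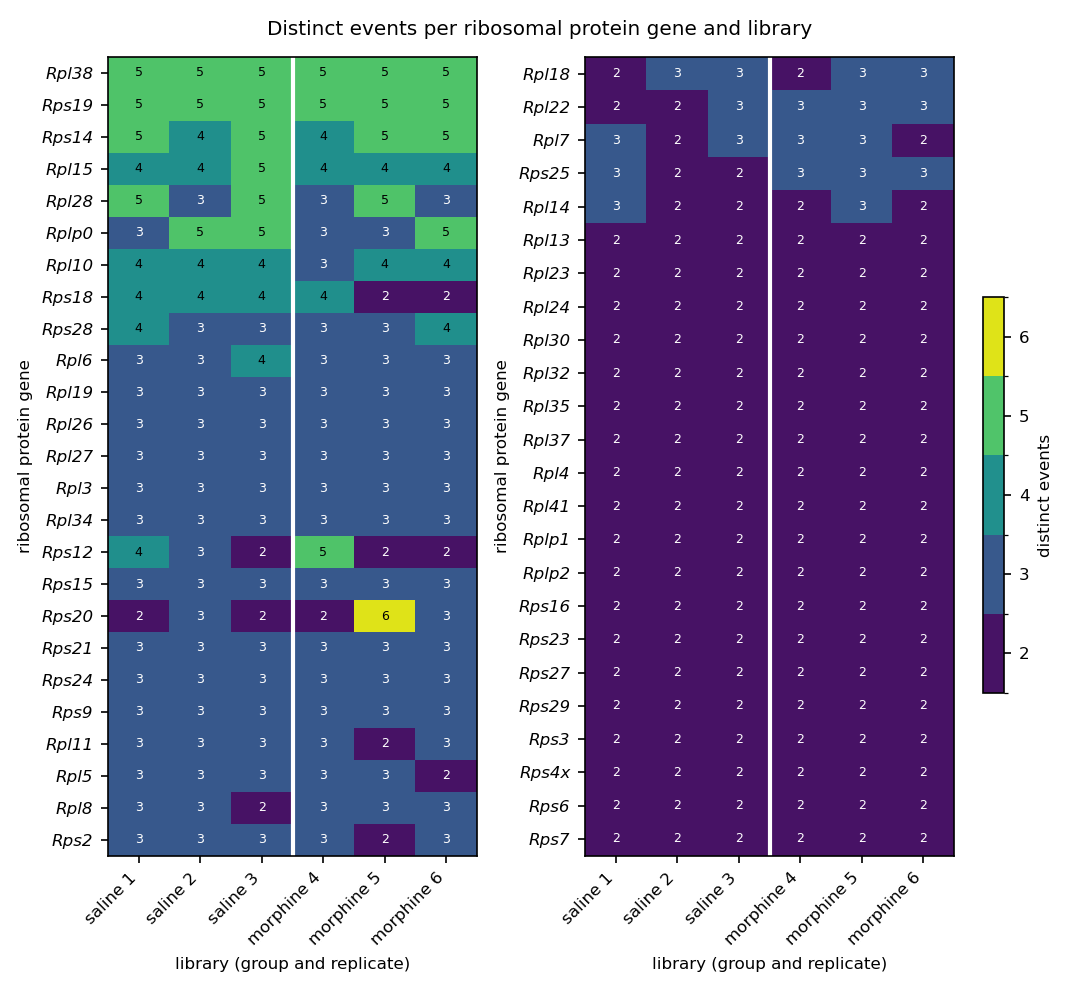
Distinct events (number and colour) of each ribosomal protein gene (rows) in each library (columns), saline left and morphine right of the white line. Counts run from 2 to 6 and 30 genes have 1 number in all 6 libraries; Rps18, Rps20, Rpl22 and Rps25 show the widest differences between group means on the log2 scale.

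Among the proteins of the large subunit, Rpl38, known for its part in the skeletal patterning of the mouse embryo, had the most events, 5 in each of the 6 libraries. They were 4 first exons and 1 last exon, identical everywhere. Rpl15 had 4, 4 and 5 events in saline and 4, 4 and 4 in morphine. Saline 3 stood above the others through 1 first exon that lies over the neighbouring gene Nkiras1. Rpl3, which sits near the peptidyl transferase centre, had 3 events in every library, and Rpl41, the smallest ribosomal protein, had 2. Rpl10, an X-linked gene whose protein joins late in the assembly of the large subunit, had 4, 4 and 4 events in saline and 3, 4 and 4 in morphine (log2 difference -0.12, SE 0.115). Morphine 4 is the low one, where 1 of the gene's 2 first exons was not listed.

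Rpl22, an RNA-binding protein outside the catalytic core, had 2, 2 and 3 events in saline and 3, 3 and 3 in morphine. Saline 3 lies at the morphine level and the other saline libraries below it. The log2 difference was 0.32 (SE 0.153, exact permutation p = 0.4, limma adjusted p = 0.905, n = 3 each). A single first exon of 1717 bases, ending at position 152327585 of chromosome 4, made the difference. It runs across the first intron and was listed in saline 3 and in all 3 morphine libraries. Without saline 3 the 2 remaining saline libraries are equal, as are the morphine libraries. Limma then called the gene (log2 difference 0.49, limma adjusted p = 3.84e-06). With no spread within a group this p reflects tied counts, and the call rests on 1 library.

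The stalk of the large subunit, which recruits elongation factors, is built from the products of Rplp0, Rplp1 and Rplp2. Rplp1 and Rplp2 had 2 events in every library. Rplp0 had 3, 5 and 5 events in saline and 3, 3 and 5 in morphine, with both values in both groups (log2 difference -0.22, SE 0.292). The switch from 3 to 5 was 1 exon listed in a longer and a shorter form. Rpl28, a large subunit protein, showed the same kind of switch, with 5, 3 and 5 events in saline and 3, 5 and 3 in morphine.

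On the small subunit, Rps19, the gene most often mutated in the inherited anaemia of Diamond and Blackfan, had 5 events in every library, 4 first exons and 1 last exon. Rps14, a gene tied to the anaemia of the 5q- syndrome, had 5, 4 and 5 events in saline and 4, 5 and 5 in morphine. Rps4x, which is X-linked, and Rps6, the substrate of S6 kinase below mTOR, had 2 events in every library. The 2 of Rps6 were not the same everywhere, because saline 3 listed a first exon of 92 bases where the other 5 libraries listed one that runs through the first intron.

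Rps18, which lies in the head of the small subunit, had 4, 4 and 4 events in saline and 4, 2 and 2 in morphine. Morphine 4 is at the saline level and morphine 5 and 6 are below it. The log2 difference of -0.57 (SE 0.268, exact permutation p = 0.4, limma adjusted p = 0.905, n = 3 each) was the widest of the 49. The 2 events not listed in morphine 5 and 6 are the longer and the shorter form of 1 exon. Leaving out morphine 4 gave a log2 difference of -0.85 and a limma adjusted p of 3.98e-06. The counts are then 4 in each saline library and 2 in both morphine libraries, with no spread within a group. That p reflects tied counts, and here too 1 library sets the call.

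Rps12, another protein of the head, had 4, 3 and 2 events in saline and 5, 2 and 2 in morphine (log2 difference -0.07, SE 0.428), with the highest counts in 1 library of each group. It had 5 different last exons, and 3 of these lie beyond the annotated end of the gene. Rps20 and Rps25 were chosen after their values were seen. Rps20 had 2, 3 and 2 events in saline and 2, 6 and 3 in morphine (log2 difference 0.46, SE 0.412, exact permutation p = 0.7). Of the 6 events in morphine 5, 2 are last exons that begin 6668 and 7535 bases beyond the annotated gene end. Rps25 had 3, 2 and 2 events in saline and 3, 3 and 3 in morphine (log2 difference 0.32, SE 0.153, exact permutation p = 0.4). A first exon of 370 bases that runs across the first intron made that difference, listed in saline 1 and the 3 morphine libraries. Without saline 1 the groups of Rps25 no longer overlap and limma called it with an adjusted p of 3.54e-06. Its counts are then equal within each group, so this p reflects tied counts as well.

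**Figure D3:**
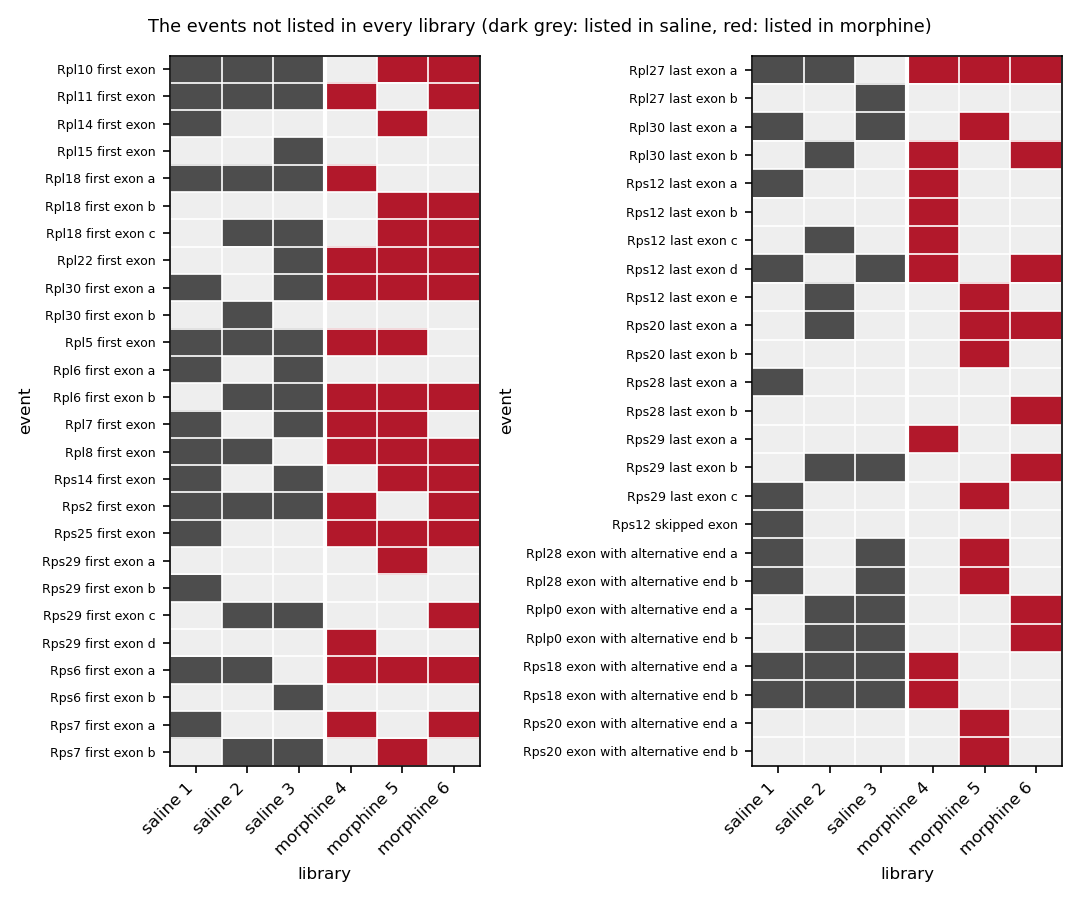
The 51 events of the ribosomal protein genes that were not listed in every library (rows, lettered within a gene and class), by library (columns); dark grey marks a listing in saline and red one in morphine. Of these events, 0 are in all 3 libraries of 1 group and none of the other.

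Skipped exons were listed for 3 of the 49 genes (6.12%), against 32.3% of all listed genes. The same one was found in all 6 libraries in Rps24 and in Rpl10. Rps24, a small subunit gene also mutated in Diamond-Blackfan anaemia, is known for very short exons near its stop codon, which change the last residues of the protein. The skipped exon has 20 bases, lies at chr14:24495430-24495449 (GRCm38, plus strand) and is in 3 of the 5 annotated coding transcripts. Sequences below are from the GENCODE M21 transcripts, 5′ to 3′, with the stop codon of the named transcript in capitals, because these transcripts use different stop codons.
Rps24 exon of 20 bases (Rps24-202): TGAgtggagattggatacag
Rps24 last exon start (Rps24-210, without that exon): ccaaaggagTAGatctgc
Rps24 exon of 18 bases (Rps24-205): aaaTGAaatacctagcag
In Rps24-202, which holds the 20-base exon, the stop codon is its first 3 bases. In Rps24-210, which lacks it, the coding sequence runs on into the last exon and stops at position 24495784. A second short exon of 18 bases at chr14:24494052-24494069 is in 1 annotated coding transcript, Rps24-205. That transcript holds the 20-base exon too, but its stop codon lies before it, in the 18-base exon, which was listed in 0 catalogues. Rps24 had 3 events in each library, this skipped exon with 1 first and 1 last exon, so both forms of the 20-base exon were recorded in saline and in morphine.

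The skipped exon of Rpl10 has 163 bases at chrX:74272672-74272834 (plus strand) and is in 3 of 4 coding transcripts. It is coding throughout and its length leaves a remainder of 1 on division by 3, so its skipping shifts the reading frame. Its sequence is shown because it is the only long internal exon that the 49 genes skip in every library.
Rpl10 exon (Rpl10-201): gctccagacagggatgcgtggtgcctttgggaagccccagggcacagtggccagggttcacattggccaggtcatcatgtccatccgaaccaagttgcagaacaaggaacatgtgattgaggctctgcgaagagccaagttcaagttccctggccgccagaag
The third event was in Rps12, in saline 1 alone. It concerns an unannotated exon of 79 bases that lies 5744 bases beyond the gene.

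**Figure D4:**
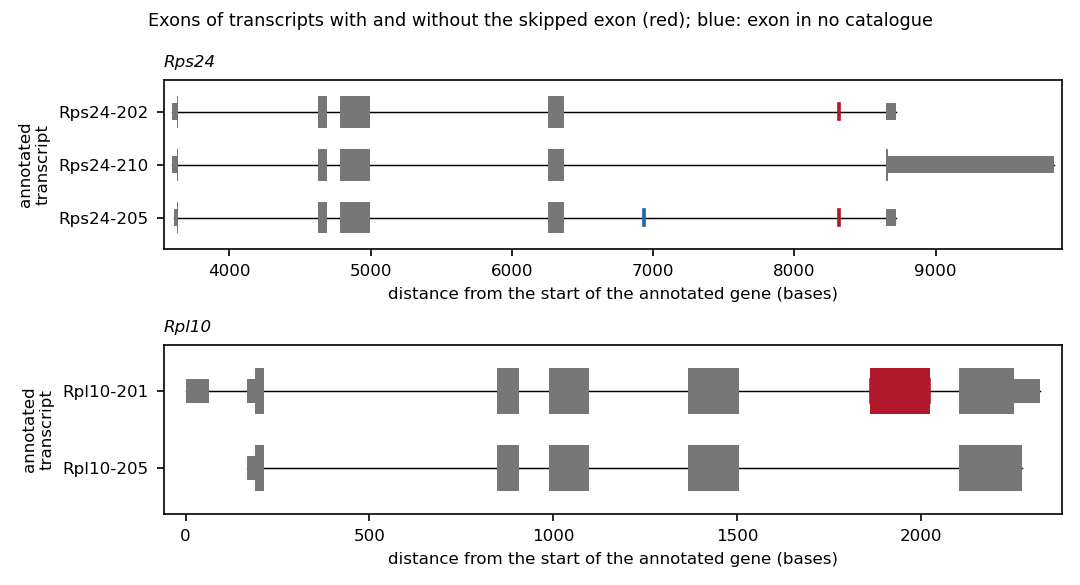
Exons of annotated transcripts of Rps24 and Rpl10 by distance from the start of the annotated gene (horizontal axis, bases); tall boxes are coding and low boxes untranslated. The exons skipped in all 6 libraries are red (20 bases in Rps24, 163 in Rpl10) and the 18-base exon listed in 0 libraries is blue.

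Alternative exon ends were listed for 4 genes (8.16%, against 25% of all listed genes) and always as a pair of exons with a common far end. They summed to 4, 4 and 6 in the saline libraries and to 2, 4 and 2 in those of morphine, and the groups overlap. No pair was in all 6 libraries. In Rpl28, Rplp0 and Rps18 both forms are annotated and the exon starts differ by 14, 22 and 19 bases, none a multiple of 3. The first 30 bases of the longer exon are printed with the bases that only it holds in capitals, since they are what separates the forms.
Rpl28 (chr7:4794050-4794079, plus strand; saline 1, saline 3 and morphine 5): GCTTTCCTTACCAGgtcagcgaaaacctgc
Rplp0 (chr5:115560719-115560748, plus strand; saline 2, saline 3 and morphine 6): TTTTTCCTGGCTTCCTTCATAGcaactttt
Rps18 (chr17:33952283-33952312, minus strand; saline 1, 2 and 3 and morphine 4): GTTCTGGCCAACGGTCTAGacaacaagctg
Each run in capitals ends in AG, the dinucleotide that closes most introns. The fourth pair was in Rps20, in morphine 5 alone, and is not annotated.

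Most of the variety lay at the 5′ end. Counted on the gene's own strand, there were 20 genes with 1 first exon, 23 with 2 and 6 with 3 or more, whereas 43 genes had 1 last exon. In 16 of the 29 genes with several first exons these all overlapped in 1 stretch, and in 13 they lay in separate stretches. The outer end of a first exon was that of an annotated transcript in 375 of 469 listings (80.0%), and for last exons in 225 of 311 (72.3%), against 60.8% and 60.9% over all genes. Beside the intron retention count of 0 stands that 39 of the 49 genes have annotated transcripts with a retained intron, 106 of their 294 annotated transcripts. In the catalogues, assembled exons that cover a whole intron of a coding transcript appear in these genes as first or last exons. There were 16 such first exons in 16 genes, and 8 of them, in Rpl10, Rpl27, Rpl28, Rpl38, Rpl41, Rps2, Rps9 and Rps21, were in all 6 libraries.

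The saline libraries listed 14, 11 and 11 of these long first exons and each morphine library listed 15. The groups do not overlap, and saline 1 lies near the morphine libraries and saline 2 and 3 lower. The measure was chosen after the values were seen, and a sum over the members gets no test. As a share of the members' first exons they were 17.7%, 14.5% and 13.8% in saline and 19.5%, 19.0% and 19.2% in morphine, again without overlap. Over all genes the same shares were 9.03%, 7.78% and 7.72% in saline and 9.38%, 8.56% and 8.86% in morphine, where the groups overlap and saline 2 and 3 are again low. Intron retention over all genes had the same order of libraries, with 7425, 5074 and 5010 events in saline and 7523, 6361 and 7018 in morphine. Whether these library values play a part in the members' counts was not tested.

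Of the 49 genes, 16 host 27 annotated snoRNAs. An end exon contained one in 2 cases. The long first exon of Rpl6, 1161 to 1183 bases, was listed in 5 libraries and holds Gm26205. The long last exon of Rps12, in saline 1 and morphine 4, holds Snora33.

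Some listings under the IDs of Rpl27, Rpl30, Rps12, Rps20 and Rps29 lie wholly outside their gene. In all, 22 events reach outside the annotated span of their gene and 3 are on the opposite strand. Some of the 22, as in Rpl8, Rpl37, Rps7 and Rps9, overlap their gene and run past its edge. Rps29 had 2 events in every library, but its own first and last exon were listed only in saline 2, saline 3 and morphine 6. In saline 1, morphine 4 and morphine 5 its 2 events included an exon over Rn7s1, a 7SL RNA gene next to it, and in saline 1 and morphine 5 both were on the strand opposite to Rps29. In saline 3 the last exon of Rpl27 was recorded 494161 bases away on the processed pseudogene Rpl27-ps2, so reads of gene and pseudogene cannot be told apart there. Rpl27, Rpl30, Rps6, Rps7 and Rps29 had equal counts in every library from different events. In contrast 25 genes had an identical set of events in all 6, and 15 of these had just 1 first and 1 last exon. Exons of Rpl3, Rpl5, Rpl13, Rpl15, Rpl18, Rpl28, Rpl32, Rpl35, Rps25 and Rps28 overlap other annotated protein-coding genes, whose reads the catalogues may have assigned either way.

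Other genes of the ribosome were read from lists by the same measures. The 31 cytosolic ribosomal protein genes outside the 49 had 82, 83 and 78 events in saline and 77, 75 and 77 in morphine. These sums do not overlap, with saline above morphine (log2 ratio -0.09), and were not tested. In this list no single gene had groups that did not overlap, and 0 genes were listed with skipping, retention or alternative exon ends. Of 9 paralogues 7 were listed, and 0 were separated. Mitochondrial ribosomal proteins have the same median of 5 exons, yet 19 of 77 listed genes (24.7%) had a retention event, 15 (19.5%) a skipped exon and 13 (16.9%) alternative ends. In this list 2 genes lay above saline in every morphine library. Mrpl3 had 2, 2 and 2 events in saline and 3, 4 and 3 in morphine (log2 difference 0.61, SE 0.115, limma adjusted p = 0.445), and Mrpl39 had 3, 3 and 3, and 4, 6 and 4 (log2 difference 0.54, limma adjusted p = 0.905).

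**Figure D5:**
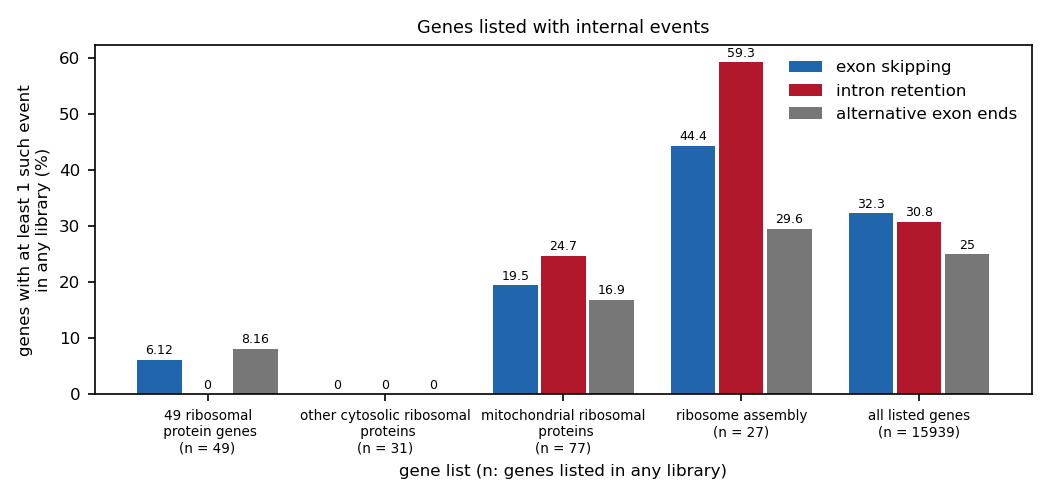
Genes with at least 1 exon skipping (blue), intron retention (red) or alternative exon end (grey) event in any library, as a share of the listed genes of each list (vertical axis, %). Both lists of cytosolic ribosomal protein genes are at 0 for retention, mitochondrial ribosomal proteins at 24.7% and ribosome assembly genes at 59.3%.

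Ribosome assembly genes, with a median of 12 exons, had retention in 16 of 27 (59.3%) and 2 genes above saline in every morphine library. These were Tsr1, a factor of small subunit maturation, with 7, 2 and 9 events in saline and 14, 14 and 14 in morphine (log2 difference 1.37, SE 0.564, limma adjusted p = 0.905), and Nmd3, the export adaptor of the large subunit, with 4, 3 and 4 and 5, 5 and 8 (log2 difference 0.62, limma adjusted p = 0.905). The list of genes for the control of TOP messenger RNAs had 1 of 13 genes separated. This was Tsc1, an inhibitor of mTOR, with 13, 6 and 8 events in saline and 14, 15 and 14 in morphine (log2 difference 0.71, limma adjusted p = 0.905). Elongation factors and nonsense-mediated decay factors had 0 of 8 and 0 of 13. The median log2 difference was 0 in each of these lists and over all tested genes.

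The catalogues listed 54641 to 58007 events per library in saline and 56416 to 57981 in morphine. All 12 markers of medium spiny neurons, the main cells of the accumbens, were listed, with sums of 59, 63 and 58 events in saline and 74, 68 and 62 in morphine. Markers of ependyma and choroid plexus, 6 of 6 listed, summed to 20, 27 and 24 in saline and 16, 17 and 17 in morphine. Markers of astrocytes, oligodendrocytes, microglia and blood were listed in full, and 5 of 6 of endothelium and mural cells. In 7 markers the groups did not overlap, which holds for 3.07% of all tested genes. They were 2 of 12 for medium spiny neurons, 2 of 6 for ependyma and choroid plexus, and 1 of 6 each for microglia and blood. Endothelium and mural cells had 1 of 5, and astrocytes and oligodendrocytes 0 of 6 each. Limma called 3 of these, each with the same count in all libraries of a group: Tmem72 of choroid plexus (2 events in each saline library, 0 in each morphine library, adjusted p = 6.05e-06), Slc4a1 of blood (0 and 2, adjusted p = 6.05e-06) and Acta2 of mural cells (3 and 2, adjusted p = 2.12e-07). With no spread within a group, these 3 adjusted p-values reflect tied counts. The exact permutation p was 0.1 for Tmem72, Slc4a1 and Acta2, the smallest that 3 against 3 allows. The other markers without overlap were not called. Foxp2 (6, 7 and 6 events, then 17, 10 and 9) and Rgs9 (4, 4 and 4, then 5, 6 and 6) of medium spiny neurons and Siglech of microglia (3, 4 and 4, then 5, 5 and 6) were higher in each morphine library. Ccdc39 of ependyma (12, 19 and 14, then 8, 9 and 11) was lower in each. Summed blood markers were 14, 29 and 21 in the saline libraries and 18, 17 and 26 in the morphine ones. Their part in the ribosomal protein values was not tested.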

How the data were processed

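The deposited file of each of the 6 libraries is an event catalogue with 20 event type codes, an Ensembl gene ID, positions, a splice pattern and strand. Its last column, headed as FPKM, holds a whole-number score from -24 to 0 in the deposited files and was not used. How the authors made the deposited catalogues (assembler, event caller, genome build, depth) is not given in the sources used here. Positions were read on GRCm38, since event boundaries match GENCODE M21 exons of the same gene, and symbols matched for 15833 of 15939 IDs. Total RNA was extracted with Trizol and sequenced on an Illumina platform, per the labels' protocols and the design text.

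Events were made distinct by gene, type, pattern and strand within a library, and codes ending in OFF, which repeat an event for its partner transcript, were left out. The 15040 genes averaging 0.5 events or more were fitted with limma 3.58.1 in R 4.3.3 on log2 (events + 0.5), lmFit and eBayes with a trend, Benjamini-Hochberg adjustment and a threshold of 0.05, with no covariate. Each gene also had an exact two-sided permutation test. The fit was tested on simulated data, where 61 of 200 genes changed 3-fold were recovered. Counts were drawn at random (Poisson), and only genes averaging 4 events or more were changed. The members averaged 2.77 events, and 30 had the same count in all libraries, so this recovery does not measure power for them. Tables were handled in Python 3.11.15 with pandas 2.3.3 and numpy 2.4.6.

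Members, gene lists and tests were chosen with earlier results of these data known. Named members were the 8 with the most events, up to 6 each with skipping or retention in most libraries, any whose groups did not overlap, that were listed in fewer than 4 libraries or had an event in 1 group alone, and Rps24, Rpl3, Rpl22, Rpl10, Rps4x, Rps6, Rplp0 and Rpl41 whatever their values. Of other lists, up to 2 non-overlapping genes each were named. Other genes were named after their values were seen. Sequences came from GENCODE M21 transcripts and RefSeq's promoter table. Alternatives covered the pseudocount, filter, scaling, variance model, events counted and leaving out each library.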

Additional observations from a re-analysis of the deposited data

How the results depend on the processing

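Over 12 to 18 alternative settings per result, the sum, the calls and the named genes were recomputed. The number of genes called by limma was 96, between 80 and 122 under all settings other than robust eBayes (44) and leaving out 1 library (250 to 285). The ribosomal protein genes called were 0, and 0 to 1 with 1 library left out (Rps25 without saline 1, Rpl22 without saline 3 and Rps18 without morphine 4). In each of these calls the remaining counts were equal within both groups. Those whose groups do not overlap were 0, and 1 (Rps25) with events scaled to equal totals, where 5.44% of all genes did not overlap, and 0 to 1 with 1 library left out, where 6.51% to 7.4% did not. The log2 ratio of the sums was -0.018, 0.0074 with first and last exons only, -0.042 with events inside the annotated gene only (an alternative chosen after seeing the data) and -0.032 to -0.011 with 1 library left out. The log2 difference of Rps12 (-0.07) ran from -0.44 to 0.14 with 1 library left out, reversing to 0.14 without saline 1, 0.12 without morphine 5, 0.12 without morphine 6 and 0.06 with first and last exons only; the cause was not tested. Of 180 values of the 15 named genes, 149 kept their sign (or stayed at 0, taken as under 0.005 in size) and their side of the threshold, 10 went to 0, 15 left 0 by at most 0.25, 2 passed the threshold and 4 reversed. With first and last exons only, the differences of Rps18 (-0.57), Rpl28 (-0.22) and Rplp0 (-0.22) were 0, because the exon pairs that made them are then not counted. No paired analysis was possible because the groups share no replicate numbers. With no depth given, an unlisted event has no detection limit.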
